A study of Anser cygnoides with 12 samples.

Results

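The 255 gene models described here are the abundant placed models of goose breast muscle: models whose ID gives a chromosome or contig (IDs starting with evm.model) and whose counts averaged 300 or more CPM (counts per 1000000 counts of a library) over 12 libraries. They were chosen by that mean alone, and they made up 255 of the 23065 models in the deposited table (1.11%) and 1.45% of its 17568 placed models. The other 5497 models carry the word newGene and no position, and 49 of those also reached 300 CPM. The muscle was pectoral (breast) tissue of Xingguo grey geese, a Chinese breed of Anser cygnoides, and poly(A)-selected RNA was sequenced. The high_IMF group held 5 libraries from tissue with high intramuscular fat, the fat stored inside a muscle, and the low_IMF group held 7 libraries from tissue with low intramuscular fat. No treatment, age or diet was given in the labels for either group. Titles of the high_IMF libraries start with M and those of the low_IMF libraries with F, letters that the labels do not explain and that follow the groups in every library. Nothing in the labels ties a library to its own bird, so a p-value here reflects only variation among these 12 samples, which may be technical.

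Skeletal muscle is an unusual tissue in how few genes supply most of its messenger RNA. Transcripts for the contractile filaments, for the enzymes of glycolysis and the creatine kinase reaction, and for the calcium pump are known to dominate muscle libraries, and mitochondrial and ribosomal protein transcripts follow. A small number of models can therefore set the scale on which all others are read. Which of these proteins the 255 models encode cannot be told here: the table gives no gene names, 0 of the 23065 IDs appear in the reference gene table, and so muscle markers and markers of fat or other cells were not examined. A model is named below by its ID, in which the number after chr or ctg is the chromosome or contig and the last number is its order along that sequence. CPM values are not divided by transcript length, so they are compared between libraries, and between models only as shares of counts.

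Library totals ran from 13481727 to 18458606 counts. A pair of high_IMF libraries, M001 and M0011, stood apart from the rest. The largest model of every library, a single newGene model, took 32.8% of the counts in M001 and 21.5% in M0011, against 9.04% to 18.1% in the other 10 libraries. All newGene models together took 60.5% and 47.2% of the counts in these 2 libraries, against 30.2% to 41.6% in the others. The 10 most abundant models of the table, some of the 255 among them, were then left out. The rest of the 255 held 39.8% of the remaining counts in M001 and 40.6% in M0011, against 30.8% to 36.9% in the others. With all models counted, the share of the 255 was instead lowest in M001, at 24.2%. Scaling by the trimmed mean of M values (TMM), which sets a library's scale from the bulk of its models instead of its total, gave factors of 0.499 for M001 and 0.683 for M0011, 1.36 for F0013, and 1.01 to 1.15 for the others. The main comparisons are therefore given with and without M001 and M0011, and on library totals as well as on TMM-scaled values.

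The abundant placed models together held 31.4% of all counts when the 12 libraries were pooled. Their share was 24.2% in M001, 30.5% in M006, 32.2% in M0011, 32.3% in M0027 and 36.7% in M0035. In low_IMF it ran from 30.1% in F001 through a median library at 31.1% to 34.7% in F0013. Both the lowest and the highest share thus belonged to high_IMF, and the whole low_IMF range lay between them. The group means were 31.2% ± 4.53 (SD, n = 5) and 31.6% ± 1.48 (SD, n = 7), a difference of -0.447 percentage points for high_IMF minus low_IMF, which is smaller than either SD. Without M001 and M0011 the high_IMF mean was 33.2% ± 3.21 (SD, n = 3) and the difference 1.55 points, with overlapping groups. Counting error was small beside these spreads: the Wilson 95% interval of the shallowest library, F0010, ran from 31.5% to 31.6%. These intervals cover counting error only, because the reads carry no molecular identifiers in the labels.

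**Figure D1:**
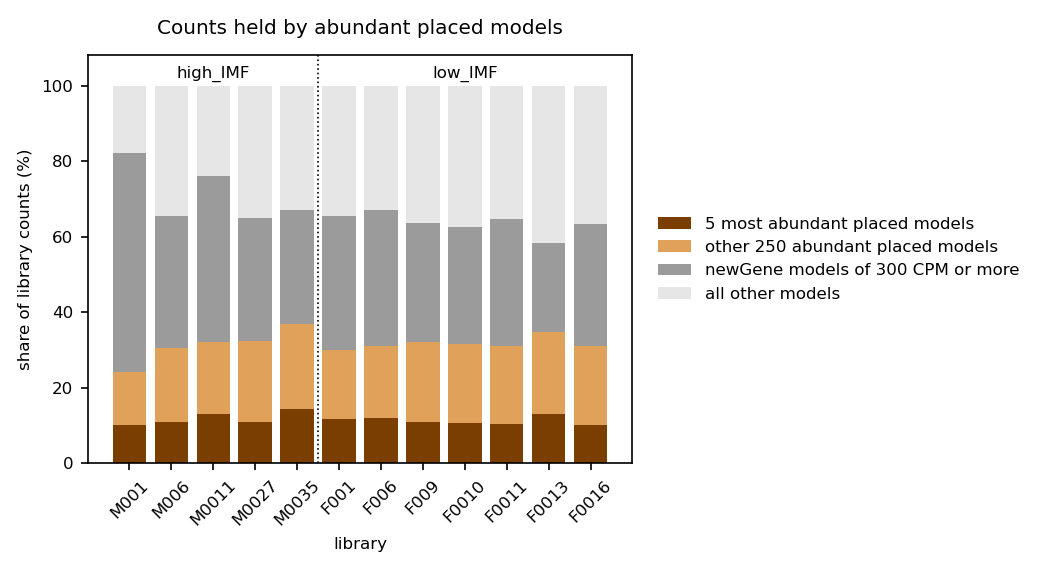
Share of library counts (%, vertical axis) held by the 5 most abundant placed models, the other 250 abundant placed models, newGene models of 300 CPM or more and all other models, for each of the 12 libraries. The newGene block is tallest in M001 (57.8%) and M0011 (43.9%), and the combined share of the 255 models is smallest in M001 (24.2%) and largest in M0035 (36.7%).

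Taken against placed models alone, the picture by library was different. The 255 models held 61.3% of placed counts in M001, 51.3% in M006, 60.9% in M0011, 52.6% in M0027 and 57.1% in M0035, and from 49.8% through a median of 50.9% to 53.1% in low_IMF. M001, M0011 and M0035 lay above every low_IMF library, and M006 and M0027 lay within the low_IMF range. The means were 56.7% ± 4.59 (SD, n = 5) and 50.9% ± 1.10 (SD, n = 7), a difference of 5.76 points that dropped to 2.79 without M001 and M0011. No test was applied to these shares, because the members were selected on the same counts. In bulk tissue, fewer cells of a type and less RNA per cell cannot be told apart, and this holds for every difference below.

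The counts were concentrated in few models. Only 5 models reached 10000 CPM, 51 lay between 1000 and 10000, and 199 lay between 300 and 1000. The first 5 supplied 36.6% of the counts of the 255, and the 56 models of 1000 CPM or more supplied 68.9%. The same 5 models were the 5 most abundant placed models in all 12 libraries, together taking 10.1% (M001) to 14.3% (M0035) of a library's counts.

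The most abundant was evm.model.chr1.2536.g, with a mean of 42186 CPM. It stood at 32482, 36730, 52668, 39426 and 55272 CPM in M001, M006, M0011, M0027 and M0035, and at 32483 to 57185 CPM with a median of 39652 in low_IMF. On library totals the groups overlapped almost completely. After TMM scaling M001, M0011 and M0035 stood at 65070, 77169 and 54305 CPM, above the low_IMF range of 28444 to 42168. M006 and M0027 lay inside that range. The model evm.model.chr1.2536.g led the placed models in 10 of 12 libraries, with evm.model.chr4.229.g ahead in F0010 and evm.model.ctg1214.8.g ahead in M001. The second, evm.model.chr4.229.g, averaged 26727 CPM. On library totals it was lowest in the libraries that stood apart, at 17301 CPM in M001 and 19243 in M0011. Its other high_IMF values were 30656, 29992 and 35417 CPM, inside the low_IMF range of 22111 to 37669 (median 24364). After TMM scaling it was not low in those libraries, at 34658 CPM in M001 and 28195 in M0011. Low_IMF then ran from 20340 to 32929 CPM (median 21335).

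The third model, evm.model.ctg1214.8.g on an unplaced contig, averaged 21968 CPM and behaved in the opposite way on library totals. It was highest in M001 (33012 CPM) and M0011 (31317 CPM), and stood at 18230, 17903 and 17500 CPM in M006, M0027 and M0035. Low_IMF libraries ran from 14845 to 26073 CPM (median 21506), so M001 and M0011 exceeded all of them and the other 3 high_IMF libraries fell inside the range. After TMM scaling M001 (66131 CPM) and M0011 (45886 CPM) were again the highest, with low_IMF at 11138 to 23979 CPM. The next pair, evm.model.chr19.625.g and evm.model.chr7.171.g, averaged 12282 and 11820 CPM. Their order was not stable, since evm.model.chr19.625.g was ahead in 7 of 12 libraries, and the second was ahead of the third in only 8. In contrast the first exceeded the second in 11 libraries, the third exceeded evm.model.chr19.625.g in 11, and evm.model.chr7.171.g exceeded the next in rank, evm.model.chr26.67.g, in all 12.

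None of the first 5 passed the test between high_IMF and low_IMF (edgeR quasi-likelihood F-test, Benjamini-Hochberg adjustment over all models, threshold 0.05). Their log2 fold changes on TMM-scaled counts were all above 0, from 0.41 for evm.model.chr4.229.g to 0.83 for evm.model.ctg1214.8.g. The lowest adjusted p in edgeR was 0.058, for evm.model.chr19.625.g, and the highest was 0.174, for evm.model.chr7.171.g. At an unadjusted p under 0.05, 3 of the 5 passed in edgeR. DESeq2 called 3 of the 5, limma-voom 0, and limma-voom with quality weights 1. On library totals the range was -0.04 to 0.18. The value of 0.83 ± 0.37 (SE) for evm.model.ctg1214.8.g became -0.09 without M001 and M0011, so its direction rested on those 2 libraries.

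**Figure D2:**
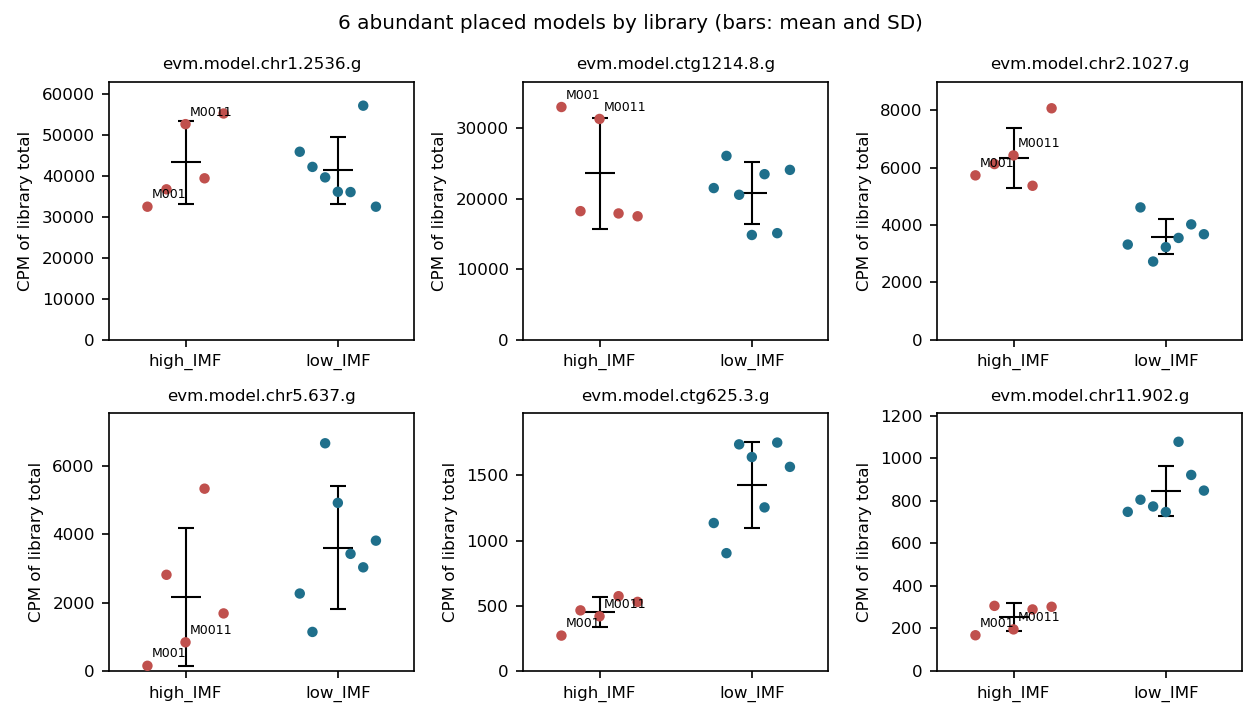
CPM of library total (vertical axes, starting at 0) for 6 models in the 5 high_IMF and 7 low_IMF libraries, one point per library, with mean and SD as bars and M001 and M0011 labelled. The groups overlap for evm.model.chr1.2536.g, evm.model.ctg1214.8.g and evm.model.chr5.637.g, while all high_IMF points lie above low_IMF for evm.model.chr2.1027.g and below it for evm.model.ctg625.3.g and evm.model.chr11.902.g.

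Of the 255 models, all passed the filter on low counts, and 71 passed the edgeR test at the 0.05 threshold (27.8%), 54 of them higher and 17 lower in high_IMF. Over all 14031 models tested, 18.0% differed, 8.47% higher and 9.54% lower. The share called was thus above that of the whole table, but close to the 27.1% among the 3508 tested models of highest abundance (the top 25%) and the 30.04% among placed models of 100 to 300 CPM. The split by direction was less even than in those classes: 76.1% of the calls were higher in high_IMF, against 54.9% in the top 25% and 69.6% in the 100 to 300 CPM class. The median log2 fold change of the 255 was 0.41 against -0.02 over all tested models, and 192 of the 255 values were above 0. These comparisons between classes are descriptions, with no test of the difference.

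The size of the changes was moderate. Among the 54 higher models log2 fold changes ran from 0.49 to 1.78 with a median of 0.91, and 20 reached 2-fold. Among the 17 lower models they ran from -3.06 to -0.63 with a median of -1.21, and 10 reached 2-fold. Since a mean over 7 low_IMF and 5 high_IMF libraries chose the models, some qualified through a single group. The high_IMF mean was under 300 CPM for 37 models, of which 16 were called, and the low_IMF mean was under 300 CPM for 15 models, of which 10 were called. The share called given above includes these models, so its excess over the whole table is partly fed by the selection.

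The count depended on which libraries were used. Without M001 and M0011, 25 of the 255 models passed, 13 higher and 12 lower, against 10.8% of all models tested (4.07% higher, 6.71% lower). The median log2 fold change was then 0.18. Leaving out single libraries, the count was 44 without M001, 46 without M0011 and 47 without F001, and over all tested models the share called was 14.9%, 11.9% and 14.8%. Both the count and the share over the whole table dropped, and the drop was larger for the 255. Leaving out another pair, F001 and F009, gave 31 called and 10.4% of all tested models. The fit without M001 and M0011 held 3 high_IMF libraries, and the part of smaller groups in these drops was not tested. With all libraries 27.8% of the 255 were called, against 18.0% of all tested models. Without M001 and M0011 it was 9.80% against 10.8%, so the excess over the whole table was absent. Classes of like abundance then stood higher: 14.9% in the top 25% of tested models and 13.8% among placed models of 100 to 300 CPM. The share was 26.5% among newGene models of 300 CPM or more. Of the 54 higher models, 36 had their highest TMM-scaled value in M001, 9 in M0011 and 9 in another high_IMF library. When the 2 libraries were left out, 37 of the 255 log2 fold changes changed sign (14.5%), against 12.8% of all models tested in both fits. None of those 37 was among the 71, which had been selected as called. In both fits 12 higher and 9 lower models passed, where 3.30% of all models passed as higher and 5.62% as lower. After TMM scaling the lower models had their lowest value in M001 for 1, in another high_IMF library (M0011 included) for 15 and in a low_IMF library for 1. These counts depend on the scale. M001 was the lowest library for 117 of the 255 on library totals, against 18 after TMM scaling.

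**Figure D3:**
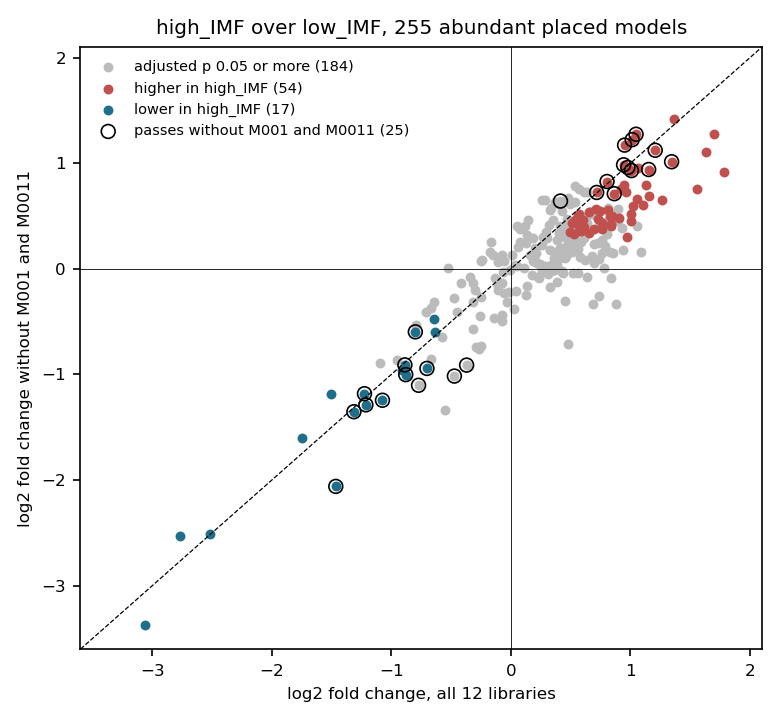
Log2 fold change of high_IMF over low_IMF for the 255 models, with all 12 libraries (horizontal axis) and without M001 and M0011 (vertical axis), one point per model. The 54 higher models mostly lie under the dashed line of equality, the 17 lower models lie close to it, and circles mark the 25 models that pass without the 2 libraries.

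The choice of scale moved the split between higher and lower more than any other choice. On library totals 36 models passed, 6 higher and 30 lower, against 18.5% of all tested models (1.07% higher, 17.5% lower). The median over all tested models moved from -0.02 to -0.42 on that scale, and the median of the 255 moved from 0.41 to -0.04. Relative to all tested models the 255 therefore stood at 0.43 on TMM-scaled counts and 0.38 on library totals, nearly the same distance. A change of scale shifts all models in much the same way, so this distance changes little by construction. All 6 higher calls on totals were also among the 54, all 17 lower models passed on totals too, and no call took the opposite direction. Because the shift is downward, the lower calls on totals are not further support for the lower models.

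**Figure D4:**
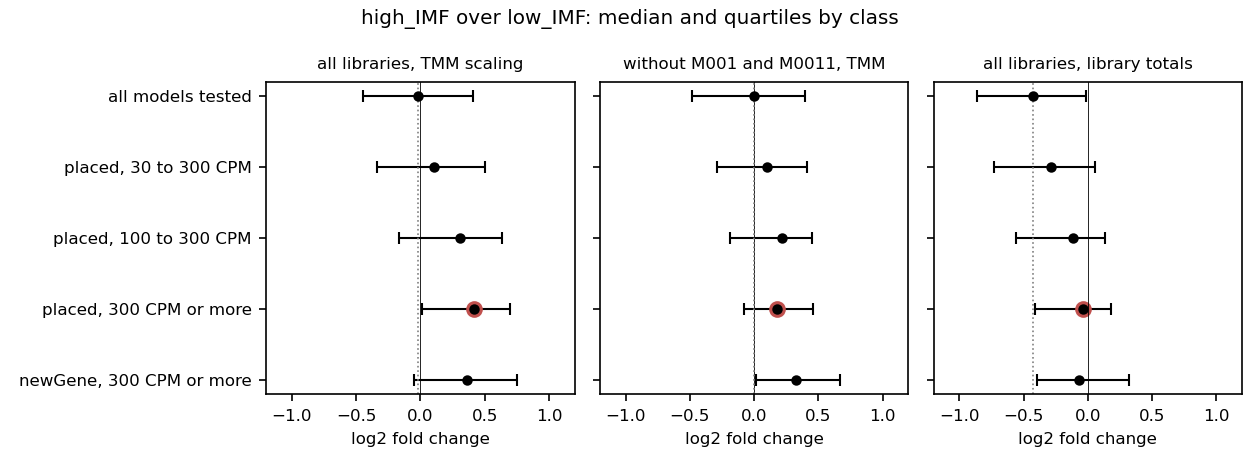
Median (point) and quartiles (bars) of log2 fold change, high_IMF over low_IMF, for all models tested and 4 classes by abundance and placement, in 3 fits. The 255 models (larger red point) lie to the right of the dotted median of all models in each panel, at 0.41, 0.18 and -0.04. Placed models of 100 to 300 CPM lie at 0.31, 0.22 and -0.12.

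A stricter count is the number of models whose 5 high_IMF and 7 low_IMF libraries do not overlap at all. On TMM-scaled CPM this held for 22 of the 255, 13 higher and 9 lower, where it held for 7.80% of all tested models (2.89% higher, 4.91% lower). On CPM of library totals it held for 2 higher and 17 lower, where it held for 10.2% of all tested models (0.321% higher, 9.90% lower). On both scales 2 models lay wholly higher and 9 wholly lower, where this held for 0.321% and 4.87% of all tested models. For lower models the second scale added little, since 4.91% of all tested models were apart on TMM-scaled CPM alone. All of the 9 except evm.model.ctg625.3.g and evm.model.chr25.246.g had a high_IMF mean under 300 CPM and reached the selection through low_IMF alone. The following models were chosen for description after their values were seen.

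The model evm.model.chr2.1027.g, seventh in abundance among the 255, stood at 5726, 6121, 6421, 5363 and 8066 CPM in M001, M006, M0011, M0027 and M0035. In low_IMF it stood at 2721 to 4608 CPM with a median of 3544. Every high_IMF library was above every low_IMF library, and on this scale the highest was M0035. After TMM scaling, on which the fold change below rests, M001 (11470 CPM) and M0011 (9409 CPM) were the highest of all libraries, above 7924 in M0035, 5598 in M006 and 5296 in M0027, and low_IMF ran from 2508 to 4238. The means on library totals were 6339 ± 1045 CPM (SD, n = 5) and 3586 ± 605 CPM (SD, n = 7). Its log2 fold change was 1.34 ± 0.23 (SE) with an edgeR adjusted p of 0.00186, 1.01 without M001 and M0011 (adjusted p 0.0102) and 0.82 on library totals (adjusted p 0.00515). It passed in 25 of 26 other fits, whose adjusted p ran from 7.8e-08 to 0.375, the exception being a fit on 6 libraries in which no abundant placed model passed.

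Close by on the same chromosome, evm.model.chr2.1031.g was ninth in abundance. It stood at 3734, 5064, 4849, 4330 and 7904 CPM in high_IMF and at 1997 to 4775 CPM with a median of 3847 in low_IMF. On library totals the groups overlapped, through M001 and M0027. On TMM-scaled counts they did not, and the log2 fold change was 0.95 ± 0.24 (SE, edgeR adjusted p 0.014). It was 0.79 without M001 and M0011, where the adjusted p was 0.0685, and 0.48 on library totals, where it was 0.162. The adjusted p over all other fits ran from 0.000458 to 0.511.

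The twelfth model, evm.model.chr19.472.g, showed M001 apart from its group in the other direction. Its high_IMF values were 2021, 4969, 5089, 4892 and 5677 CPM, and its low_IMF values ran from 2173 to 4180 CPM with a median of 3200. M001 lay below every low_IMF library, and the other 4 high_IMF libraries lay above all of them. Scaling by TMM placed M001 above the low_IMF range as well, and the log2 fold change was then 1.01 ± 0.21 (SE, adjusted p 0.00583 in edgeR) with all libraries and 0.93 without M001 and M0011 (adjusted p 0.0121). On library totals it was 0.57 and missed the threshold (adjusted p 0.116), and over all other fits the adjusted p ran from 6.06e-06 to 0.4.

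Among the 20 most abundant placed models, 4 passed, all higher in high_IMF: these 3 and evm.model.chr26.698.g. That count is near the 18.0% called over all tested models. The model evm.model.chr26.698.g also had the second highest log2 fold change of the 71. Its high_IMF values were 3443, 2418, 3987, 1779 and 6209 CPM, and its low_IMF values ran from 585 to 2611 CPM with a median of 1592. M006 and M0027 lay inside the low_IMF range. Its log2 fold change was 1.70 ± 0.38 (SE, edgeR adjusted p 0.00904), 1.28 without M001 and M0011 (adjusted p 0.0681) and 1.13 on library totals (adjusted p 0.027).

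The highest log2 fold change belonged to evm.model.ctg279.1.g, at 1.78 ± 0.40 (SE, edgeR adjusted p 0.00876). Its high_IMF values were 492.8, 196, 860, 528 and 392 CPM, against 142 to 363 CPM with a median of 198 in low_IMF. M006 sat at the low_IMF median and the other 4 high_IMF libraries lay above the low_IMF range. Without M001 and M0011 the value was 0.92 and the adjusted p 0.103, and on library totals they were 1.16 and 0.0179. The low_IMF mean of this model was 221 CPM, so it reached the selection at 300 CPM through high_IMF alone. The second model wholly higher on both scales was evm.model.chr30.403.g, at 1222, 571, 970, 723 and 790 CPM in high_IMF and 307 to 536 CPM (median 477) in low_IMF. Its log2 fold change, 1.56 ± 0.34 (SE) with an edgeR adjusted p of 0.00776, dropped to 0.76 without M001 and M0011 (adjusted p 0.0611) and was 0.92 on library totals (adjusted p 0.00936).

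Without M001 and M0011, 9 of the 17 lower models still passed, and 12 of the 54 higher models did. Most lower models named below had a high_IMF mean under 300 CPM and reached the selection through low_IMF alone. This contrast is therefore not read as a result about abundant models. The clearest was evm.model.chr11.902.g, at 168, 306, 196, 290 and 302 CPM in high_IMF and 747 to 1077 CPM (median 805) in low_IMF. Its high_IMF mean was 252 CPM, so it reached the selection at 300 CPM through low_IMF alone. The gap between the groups was wider than the range of high_IMF. After TMM scaling its means were 297 ± 23.0 CPM (SD, n = 5) and 739 ± 117 CPM (SD, n = 7). The log2 fold change was -1.31 ± 0.17 (SE, edgeR adjusted p 0.000337), -1.35 without M001 and M0011 (adjusted p 0.00177) and -1.74 on library totals (adjusted p 0.000122).

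The most abundant of the wholly lower models was evm.model.ctg625.3.g, at 272, 465, 419, 574 and 530 CPM in high_IMF and 903 to 1751 CPM (median 1565) in low_IMF. The lowest low_IMF library stood well above the highest high_IMF library. Its log2 fold change was -1.21 ± 0.20 (SE, edgeR adjusted p 0.00161), -1.29 without M001 and M0011 (adjusted p 0.00613) and -1.66 on library totals (adjusted p 0.000317). The others lower on both scales were evm.model.chr28.426.g, evm.model.chr10.860.g, evm.model.chr4.23.g, evm.model.chr7.83.g, evm.model.chr2.350.g, evm.model.chr28.429.g and evm.model.chr25.246.g, with log2 fold changes from -1.22 to -0.45. All but the last passed the test, and evm.model.chr25.246.g missed it with an edgeR adjusted p of 0.0586. All but the last also had a high_IMF mean under 300 CPM, at 171 to 201 CPM, and reached the selection through low_IMF alone.

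The 2 lowest log2 fold changes came with the widest spreads. Both models had a high_IMF mean under 300 CPM, at 71.4 and 189 CPM, and reached the selection through low_IMF alone. The model evm.model.ctg2730.1.g stood at 81.5, 109, 47.3, 113 and 6.59 CPM in high_IMF and at 12.9 to 1224 CPM with a median of 1137 in low_IMF. A single low_IMF library, F001 at 12.9 CPM, lay among the high_IMF values, and the other 6 lay far above. Its log2 fold change was -3.06 ± 0.84 (SE, edgeR adjusted p 0.0219), and it missed the threshold without M0011 (adjusted p 0.0543) and without M001 and M0011 (-3.37, adjusted p 0.0704), while on library totals it was -3.57 (adjusted p 0.00506). The model evm.model.chr9.668.g stood at 68.7, 452, 114, 84.2 and 225 CPM in high_IMF and at 149 to 4519 CPM with a median of 1342 in low_IMF, the highest in F0011. The groups overlapped, the log2 fold change was -2.77 ± 0.68 (SE, edgeR adjusted p 0.0139), without M001 and M0011 it was -2.53 (adjusted p 0.0846), and on library totals -3.07 (adjusted p 0.00585).

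The results of 3 fits can be read together: all libraries on TMM, TMM without M001 and M0011, and library totals. In all 3 of them, 3 of the 255 passed as higher and 9 as lower, where 0.877% of all models did so as higher and 5.62% as lower. Read against those shares, neither count is a result about the abundant models as a set. The higher models were evm.model.chr2.1027.g, evm.model.chr3.2151.g and evm.model.chr25.117.g, with log2 fold changes of 1.15 to 1.34 in the first fit. The low_IMF mean of evm.model.chr3.2151.g was 297 CPM, so it reached the selection at 300 CPM through high_IMF alone. For evm.model.chr25.117.g the high_IMF values were 447, 756, 558, 377 and 768 CPM, and the low_IMF values ran from 278 to 463 CPM with a median of 360. M001 and M0027 lay inside the low_IMF range on library totals. The 9 lower models ran from -1.46 to -0.70 in the first fit and had means of 316 to 1020 CPM, the highest being evm.model.ctg625.3.g. Most of these 9 had a high_IMF mean under 300 CPM and reached the selection through low_IMF alone.

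Calls differed in number between the classes within the 255. Of the 56 models of 1000 CPM or more, 10 were called (8 higher, 2 lower), and of the 199 models of 300 to 1000 CPM, 61 were called (46 higher, 15 lower). These were 17.9% and 30.7%, against 18.0% over all tested models. Models that reached 300 CPM through a single group are included, so this difference is not read as a result about abundance. Models on chromosomes gave 56 calls of 223 (25.1%, 42 higher and 14 lower), and models on contigs gave 15 of 32 (46.9%, 12 higher and 3 lower). Without M001 and M0011 the contig models gave 1 call, evm.model.ctg625.3.g, and their median log2 fold change went from 0.75 to 0.27. The chromosome models then gave 24 calls, and their median went from 0.40 to 0.18. The shares called were 3.1% for contig and 10.8% for chromosome models, where 10.8% of all tested models were called. On library totals the contig models gave 4 calls (1 higher, 3 lower) and the chromosome models 32 (5 higher, 27 lower). These were 12.5% and 14.3%, against 18.5% over all tested models. Contig models thus moved more than chromosome models when the 2 libraries were left out, a difference that was not tested.

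The 255 models also differed widely in how steady they were between libraries. The highest CPM of a model was 3.05 times its lowest in the median, from 1.42 to 186 times over the models. In 48 models the ratio was under 2 and in 17 it was over 10. At the level of single libraries, 116 models reached 300 CPM in all 12, and 28 did so in 6 or fewer, the least in 3. The number of the 255 at or above 300 CPM was 159 in M001 and 191 in M0011, and 211 to 236 in the other libraries. M001 gave the lowest CPM for 117 of the 255 on library totals, and the highest for 94 after TMM scaling.

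Within groups, the SD of log2 TMM-scaled CPM had a median of 0.42 over the 255 models, from 0.14 to 2.19. It was 0.48 over all tested models, 0.41 over placed models of 100 to 300 CPM and 0.46 over newGene models of 300 CPM or more. Without M001 and M0011 the median of the 255 was 0.36. The spread of the 255 was thus close to that of the class below them in abundance. Even the least covered of the 255 averaged 4844 counts per library, at which counting error is minor beside these SDs. The lowest single count was 101, in M0035.

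The steadiest model on TMM-scaled values of all 12 libraries was evm.model.chr27.378.g, with a within-group SD of 0.14. It stood at 392, 736, 428, 650 and 631 CPM in high_IMF and 456 to 709 CPM (median 486) in low_IMF, with overlap on library totals. Its highest value there was 1.88 times its lowest, and the smallest such ratio among the 255, 1.42, belonged to evm.model.chr32.403.g. After TMM scaling the groups of evm.model.chr27.378.g separated, at 669 ± 67.4 CPM (SD, n = 5) and 454 ± 44.7 CPM (SD, n = 7). Its log2 fold change of 0.56 ± 0.15 (SE) passed with an edgeR adjusted p of 0.0195, and did not without M001 and M0011 (0.51, adjusted p 0.0577) or on library totals (0.12, adjusted p 0.743). A larger change with a wide spread, as in evm.model.ctg2730.1.g, and a small change with a narrow spread thus gave similar adjusted p-values.

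Among the abundant models with a wide range, evm.model.chr5.637.g, the fourteenth, was the most abundant. It stood at 154, 2818, 842, 5339 and 1687 CPM in high_IMF and at 1146 to 6668 CPM with a median of 3431 in low_IMF, a 43.3-fold range. Libraries of both groups were spread over most of that range, and no difference was called (log2 fold change -0.52 ± 0.54 SE, edgeR adjusted p 0.531). At the edge of the selection, evm.model.chr33.430.g lay just inside with a mean of 301 CPM (211 to 454 over libraries), and evm.model.chr6.931.g just outside with 298 CPM (144 to 508).

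Co-variation was measured on the deviations of log2 TMM-scaled CPM from the group means, over the 12 libraries, for all 32385 pairs of the 255 models. The median Pearson r was 0.14 (Spearman rho 0.14), and 10.7% of pairs were over 0.7. The median was 0.08 among placed models of 100 to 300 CPM, 0.09 among abundant newGene models and 0.02 among the 3508 most abundant tested models. On library totals the 255 went from the highest to the lowest of these classes: their median was 0.19, against 0.29, 0.31 and 0.38 for the others. All pairs share the same libraries, depth and scale factors, so these values are descriptions. Without M001 and M0011 the median r (TMM) of the 255 was 0.06, against 0.05, 0.09 and 0.02 in the other classes, with the newGene models the highest. How strongly the 255 varied together relative to other classes thus depended on the scale and on those 2 libraries. The first and second principal components of the deviations held 37.1% and 24.7% of the variance of the 255, against 26.1% and 16.1% over all tested models. Without M001 and M0011 they held 39.5% and 18.9% for the 255, and all tested models were not examined that way.

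Hierarchical clustering of these deviations, cut at 4 groups, split the 255 into 168, 60, 22 and 5 models. The clusters were made from the same values that are described next. Group 1, with 168 models and 78.5% of the CPM of the 255, held each of the 5 most abundant models and 29 of the 32 contig models. It lay above the high_IMF mean in M001 (by 0.53 on the log2 scale) and M0011 (0.39), and below it in M006 (-0.50). That pattern belongs to the TMM scale. As a share of library counts the group was lowest in M001, at 21.7%, then in M006, at 22.8%, and ran from 23.1% to 29.6% in the others, with M0011 at 27.5%. The median r (TMM) within it was 0.45, and 0.16 without M001 and M0011. Of its models 44 were called higher and 6 lower in high_IMF, and without the 2 libraries 4 and 7. Over all tested models 8.47% were called higher and 9.54% lower, and without the 2 libraries 4.07% and 6.71%.

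Group 2, with 60 models led by evm.model.chr7.467.g, varied in another pattern. It was high in M0027 (0.51), F009 (0.49) and F0010 (0.30), and low in M001 (-0.57) and F006 (-0.50), so libraries of both groups were at both ends. That holds on the TMM scale. As a share of library counts group 2 was lowest in M001, at 1.58%, and M0011, at 3.35%, and ran from 3.46% to 7.16% in the others. Its median r was 0.44, and 0.42 without M001 and M0011. The median r between models of groups 1 and 2 was -0.25, and -0.05 without the 2 libraries. Group 2 held 1 higher and 6 lower calls, and 2 and 3 without M001 and M0011. The shares over all tested models were 8.47% higher and 9.54% lower, and 4.07% and 6.71% without them. Its members evm.model.chr7.467.g and evm.model.chr7.466.g are consecutive on chromosome 7 and are the eighth and thirteenth most abundant of the 255.

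Group 3 held 22 models led by evm.model.chr2.1095.g. It was high in F0013 (0.37) and M006 (0.25), and low in F0010 (-0.43) and M0027 (-0.38). Its 9 higher and 5 lower calls became 7 and 2 without M001 and M0011, and its median log2 fold change went from 0.46 to 0.56. Over all tested models the shares were 8.47% higher and 9.54% lower, and 4.07% and 6.71% without those libraries. The 5 models of group 4 gave 0 calls in edgeR with all libraries, where 2 had an unadjusted p under 0.05, and 0 without M001 and M0011, where 1 did. With all libraries DESeq2 and limma-voom each called 1 of them, which is not read as a result with so few models.

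**Figure D5:**
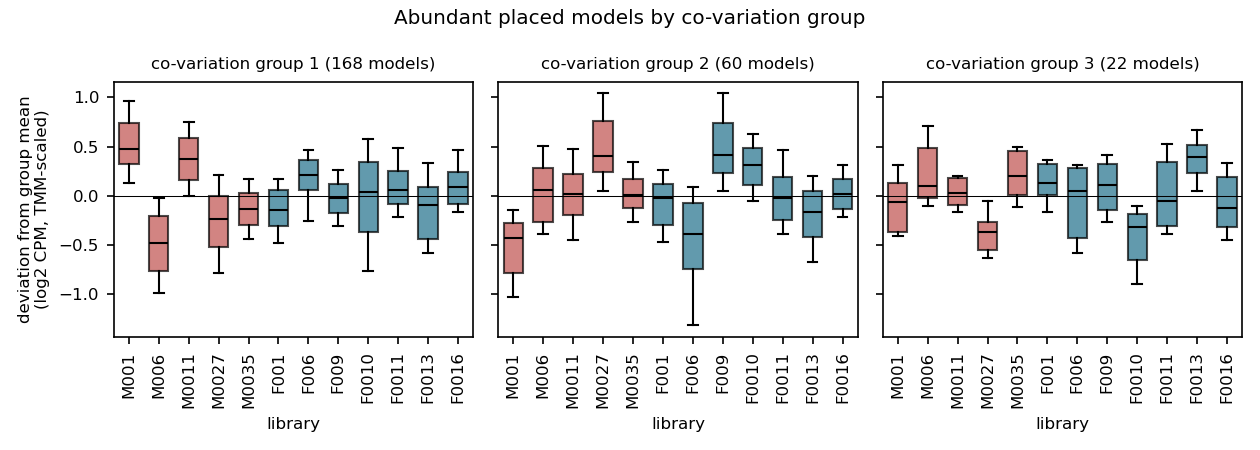
Deviation from the group mean (log2 CPM, TMM-scaled, vertical axis) by library for the models of co-variation groups 1, 2 and 3, with boxes from the first to the third quartile, a line at the median and whiskers from the 10th to the 90th percentile. Group 1 is high in M001 and M0011 and low in M006, group 2 is high in M0027 and F009 and low in M001 and F006, and group 3 is high in F0013 and low in M0027 and F0010.

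By position, the 255 models were spread over 36 of the 39 chromosomes named in the IDs and over 30 contigs, with none on chromosomes 23, 36 and 38. Relative to the placed models on a chromosome, the share was highest on chromosome 34 (3.33%) and chromosome 35 (3.03%), against 1.45% over all placed models. Chromosome 25 carried 7 of the 255, with 3 higher and 0 lower calls, and 2 higher calls without M001 and M0011. Chromosome 12 carried 11, with 1 higher call that was lost without those libraries. Chromosomes 31, 35 and 37 together carried 17, with 2 higher calls that were also lost. Over all tested models 8.47% were called higher, and 4.07% without those libraries. With so few models per chromosome, these counts are not read as results about chromosomes.

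Consecutive numbers joined 25 of the 255 into 12 runs, 11 of 2 models and 1 of 3, which gave 13 neighbouring pairs. The median r of their deviations over the 12 libraries was 0.51 (rho 0.50), and 0.49 without M001 and M0011, with 3 pairs over 0.7 and 7 pairs inside a single co-variation group. Reads that neighbouring, overlapping or duplicated models share cannot be separated here, because the counting and strand settings are not given in the sources used here.

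The most abundant run was evm.model.chr7.170.g and evm.model.chr7.171.g. They are adjacent but unequal: the first averaged 1269 CPM and the second 11820 CPM, and the ratio of first to second ranged from 0.0607 to 0.233 over libraries. Their r was 0.43, and 0.02 without M001 and M0011. The next run, evm.model.chr7.466.g and evm.model.chr7.467.g, had an r of 0.68, and 0.63 without the 2 libraries. The ratio in this pair ran from 0.33 to 1.04, and neither model was called.

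In the third run evm.model.chr26.66.g (897 CPM) and evm.model.chr26.67.g (6043 CPM) had an r of 0.68, and 0.49 without M001 and M0011. The smaller model was highest in M0011 (1484 CPM) and M001 (1455 CPM), and its log2 fold change went from 0.88 to -0.33 without them, with no call in either fit. The last runs of the 5, evm.model.chr12.695.g with evm.model.chr12.696.g and evm.model.chr7.398.g with evm.model.chr7.399.g, had r of -0.44 and -0.19, and each pair fell in different co-variation groups. Of these 4 models evm.model.chr12.696.g alone was called (log2 fold change 0.83 ± 0.24 SE, edgeR adjusted p 0.0274), and it lost the call in 7 of 12 fits that left out 1 library, M001, M0011 and M0035 among them.

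The closest pair was evm.model.chr32.459.g and evm.model.chr32.460.g, with an r of 0.89, and 0.84 without M001 and M0011. The most opposed by Pearson r over all libraries was evm.model.chr2.1715.g and evm.model.chr2.1716.g, with an r of -0.64, and -0.36 without them. Its Spearman rho was -0.32, and -0.08 without M001 and M0011. Without those libraries the lowest r, -0.46, belonged to evm.model.chr3.569.g and evm.model.chr3.570.g. Of the chromosome 2 pair, the first was called higher in high_IMF (log2 fold change 0.76) and the second lower (-1.50). The second stood at 20.2, 177, 122, 299 and 176 CPM in high_IMF and at 140 to 1055 CPM with a median of 530 in low_IMF, with the lowest value in M001. Its high_IMF mean was 159 CPM, so it too reached the selection through low_IMF alone. Adjacent position among these abundant models therefore went with values of r from -0.64 to 0.89.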

How the data were processed

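RNA of 12 pectoral muscle libraries was deposited by the authors as 1 table of raw counts per gene model. The submitters' processing notes list HISAT2 and DESeq2, without role or version. The counting program, strand setting, build and annotation are not given in the sources used here. All 12 columns were used, and column M011 was matched to M0011 by the library name in the labels.

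Abundant placed models were those with a mean CPM of 300 or more, from counts over column totals. Members and lists were chosen with earlier results of these data known. In R 4.3.3, edgeR 4.0.16 filtered (filterByExpr) and TMM-scaled all models and tested each by its quasi-likelihood F statistic, with Benjamini-Hochberg adjustment over all 14031 tested models and a threshold of 0.05. SEs came from the F statistic. Log2 TMM-scaled CPM used a prior count of 2. Models named were the 5 most abundant, the 2 highest and 2 lowest called log2 fold changes, the largest and smallest spread, the models around 300 CPM and the 5 most abundant runs of consecutive numbers. Others were chosen after their values were seen. Library numbers shared between groups (001, 006, 0011) had correlations of 0.000164, -0.124 and 0.114. So few values cannot exclude a pairing, and the main fits used none. Scripts were tested on simulated data. The lowest chi-square per model over 66 library pairs was 543, so no pair of libraries differed by counting error alone. That value cannot exclude separate libraries of the same bird. Alternatives were other scalings and filters, DESeq2 1.42.0, limma-voom (limma 3.58.1), libraries left out and other membership thresholds.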

Additional observations from a re-analysis of the deposited data

Results flagged for a closer look

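Over 60 sets of values (a measure in 1 group of libraries), in 7 a single library lay far from its group, judged by its gap to the nearest library relative to the whole range. Chance gives about 1 in 20 sets where the sets are independent. The sets here share libraries and totals, and some models were named for extreme values. The 7 of 60 are therefore not read against that rate. The share of all counts held by the 255 models was 34.7% in F0013, where the next low_IMF library had 31.9%. The share of placed counts was 53.1% in F006, where the next low_IMF library had 51.0%.

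The other 5 were single models. In low_IMF, evm.model.chr9.668.g stood at 4519 CPM in F0011, with the next library at 1764 CPM. The steadiest model after TMM scaling, evm.model.chr27.378.g, stood at 709 CPM in F0013, with the next at 556 CPM. F0013 also had the largest TMM factor, 1.36. In F0010, evm.model.chr33.430.g was highest at 454 CPM (next 290 CPM) and evm.model.chr26.67.g was lowest at 3265 CPM (next 6100 CPM). In high_IMF, evm.model.chr19.472.g was lowest in M001 at 2021 CPM, with the next library at 4892 CPM. The part of library composition in these values was not tested.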

How the results depend on the processing

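Over 26 other fits, the 702 values of the named models never changed direction where a call was made: 646 kept their side of the threshold, 40 lost it and 16 gained it. The count of 71 models called (54 higher, 17 lower) was 36 (6 and 30) on library totals, 44 with 19 higher on the total of placed models (19.4% of all tested models), and 45 with 24 higher on totals without the 10 most abundant models (18.0%). DESeq2 called 106, 85 higher and 21 lower (20.4%). The count was 25 with 13 higher without M001 and M0011, and 31 with 19 higher without F001 and F009 (10.4%). Leaving out single libraries gave 44 to 87 called and 31 to 72 higher. The share over all tested models was 14.9% without M001, 11.9% without M0011 and 14.8% without F001. It is not given for the other single libraries, so that range is not read as a result about the 255. Membership at 200 CPM gave 115 (88 and 27), and at 500 CPM 30 (25 and 5). The numbers of models at those thresholds are not given, so these counts cannot be read as shares. The share difference of -0.447 points was 5.76 of placed counts. It was 4.55 when the 10 most abundant models, some of the 255 among them, were left out. With a replicate block over the 6 libraries of shared numbers, 0 of the 255 were called in edgeR (0 higher, 0 lower; 13 models in the whole table), and 25 had an unadjusted p under 0.05. A fit of these 6 with no block, added after seeing the data, also gave 0 (0 and 0), with 74 under that unadjusted threshold. Those fits have 6 libraries instead of 12; the cause of the other changes was not tested. The median log2 fold change of the 255 relative to all tested models stayed between 0.18 and 0.55, and the median spread between 0.36 and 0.44. The median correlation stayed between 0.06 and 0.19. With all libraries it was the highest of the classes compared on TMM-scaled counts and the lowest on library totals. Depth limits little here, since the lowest count of any of the 255 was 101.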
